A study of Mus musculus with 24 samples.

Results

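The immediate early response genes considered here are 10 of the 24421 gene symbols counted in adipose tissue of the mouse: Fos, Fosb, Jun, Junb, Atf3, Egr1, Egr2, Nr4a1, Ier2 and Zfp36. They were chosen by name as the classical early genes, and their rows were read from the count file of each of the 24 libraries. All 10 passed the filter on low counts in every comparison. The mice were C57BL/6, 2 months old, and either wild type (WT) or carriers of STAT5B-Y665F or STAT5B-Y665H, point mutations that replace a tyrosine of the transcription factor STAT5B with phenylalanine or with histidine. Each genotype was sampled in males and in females, which gave 6 groups of 4 libraries. The labels do not say whether carriers were heterozygous, which fat depot was taken, or whether each library came from a separate animal, so the p-values measure only the spread between these libraries. A count per gene cannot show a point mutation, so the genotype labels could not be checked from the counts.

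Immediate early genes are transcribed within minutes of a stimulus, from factors already present in the cell and without new protein synthesis. Growth factors reach them through the MAP kinase pathway and serum response factor, hormones and neural signals through cyclic AMP and CREB, and cytokines through STAT and NF-kB proteins. Most of the 10 encode short-lived transcription factors, and Zfp36 encodes a protein that destabilises mRNAs with AU-rich elements, cytokine and early gene mRNAs among them. In adipose tissue such genes respond to feeding, catecholamines and inflammation, and they are also known to rise when tissue is cut, warmed or digested before its RNA is fixed.

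The gene counts of a library summed to between 21.0 M and 41.3 M, with a median of 34.6 M (M stands for 1000000 counts), and each level is a count scaled to 1000000 gene counts (CPM). All 12 adipocyte markers were present in every group, with a summed level of 11100 to 41040 CPM per library. No pair of libraries of a group agreed within sampling noise, the lowest chi-square per degree of freedom being 16.4. Some male libraries held RNA of the epididymis, the duct beside which the gonadal fat pad of males lies: the 8 epididymal markers (Adam7, Lcn5, Lcn8, Lcn9, Crisp1, Defb20, Spink8 and Cst11) summed to 1.18 to 13790 CPM in WT males, 0.0251 to 1085 CPM in Y665F males and 1.77 to 1784 CPM in Y665H males. In females they summed to at most 0.721 CPM, and 7, 3 and 5 of the 8 had no count in WT, Y665F and Y665H females. Because the depot is not named, sex and depot cannot be told apart in any comparison of males with females.

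Levels were set per kilobase of annotated exon (GENCODE M21, build GRCm38, the same assembly as the mm10 of the files). The length joined the exons of all annotated transcripts of a gene. For Zfp36 it spanned the whole gene, 3470 bases. A shorter length would raise its value, so its order against Jun depends on the length used. By this measure Jun was the most abundant of the 10, with a median of 27.2 CPM per kb over the 24 libraries and a range of 18.3 to 43.0. Zfp36 followed with a median of 15.2 CPM per kb, Ier2 with 12.0 and Junb with 11.5. Egr1 had a median of 6.24 CPM per kb, Fos 4.48, Atf3 4.17 and Nr4a1 3.87. Egr2, with 1.97, and Fosb, with 0.521 CPM per kb, were the least abundant. The ranges over the 24 libraries overlapped for every pair of neighbours in this order. Whether neighbours differed within each library was not tested, and overlapping ranges cannot show it. Among members further apart, the lowest value of Jun (18.3) lay above the highest of Fos (15.6), Nr4a1 (13.5), Atf3 (8.51) and Fosb (3.99). From the lowest to the highest library the members differed in how far they ranged. Jun covered 2.35-fold, Zfp36 3.40-fold, Ier2 3.58-fold, Atf3 4.36-fold and Junb 4.84-fold. Egr1 covered 7.00-fold, Nr4a1 7.31-fold, Fos 11.6-fold, Fosb 15.3-fold and Egr2 116-fold.

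**Figure D1:**
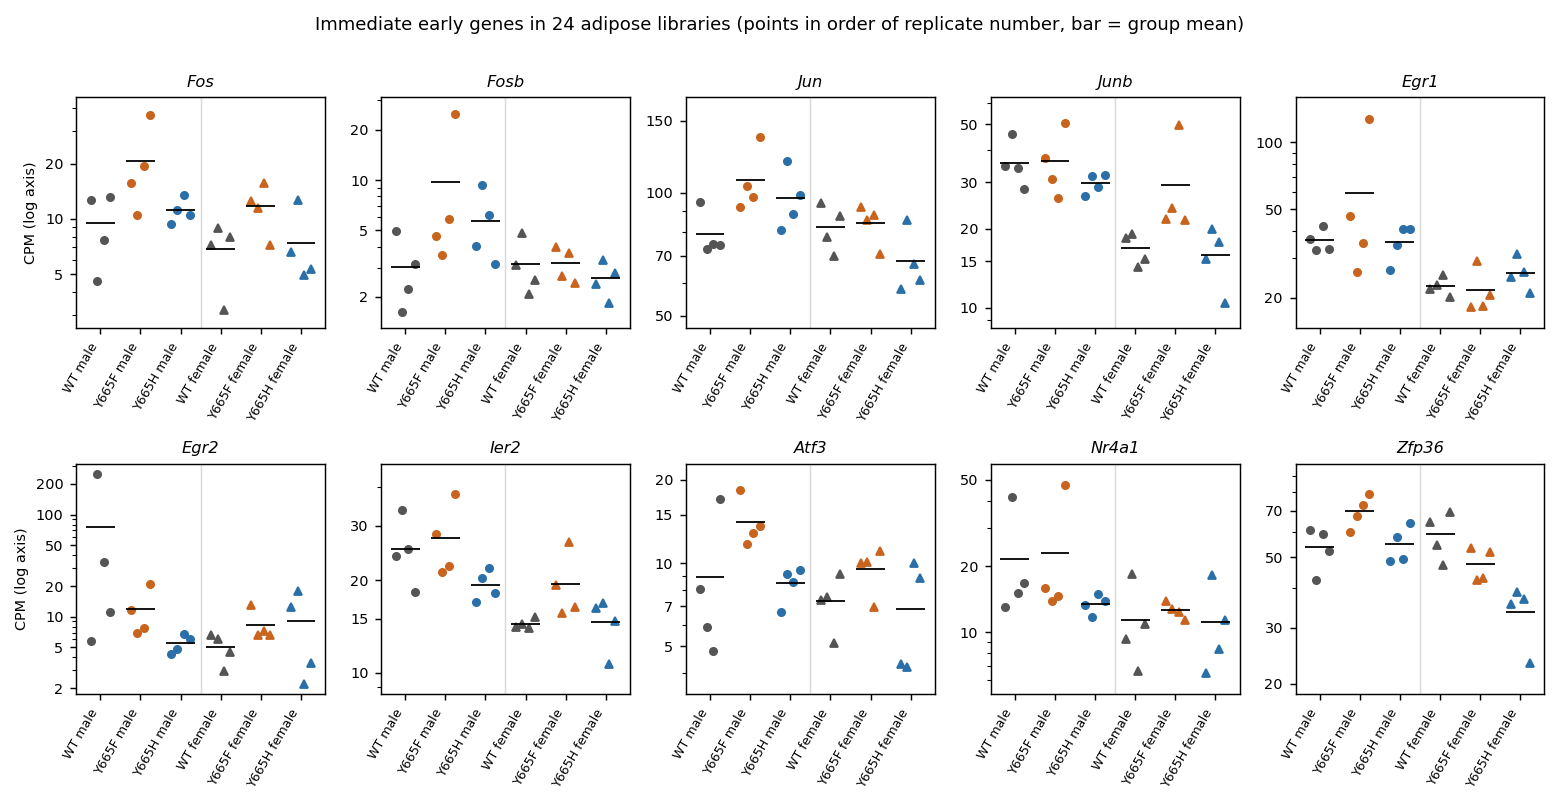
CPM (log axis) of each of the 10 genes in the 24 libraries; circles are males and triangles females, grey is WT, orange Y665F and blue Y665H, points stand in order of replicate number and the bar is the group mean. Y665F male 4 is the highest of all libraries for 8 of the 10 genes, and WT male 2 for Egr2 (253 CPM).

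The promoters of the 5 members whose comparisons with WT had the smallest p-values are printed here with the searched regulatory elements marked. No searched element was found in all 5. They are the 250 bases before the RefSeq transcription start in GRCm38.p6, 5′ to 3′ on the strand of the gene, with matches on either strand to the searched motifs in capitals. The motifs were the cAMP response element TGACGTCA and its core TGACG, the AP-1 element TGANTCA, the STAT element TTCNNNGAA, the EGR element GCGNGGGCG, the TATA box TATAAA and the CArG box bound by serum response factor. Zfp36 lies at chr7:28379229-28379478 (minus strand), Egr2 at chr10:67537619-67537868 (plus strand), Jun at chr4:95052223-95052472 (minus strand), Fos at chr12:85473640-85473889 (plus strand) and Junb at chr8:84978749-84978998 (minus strand).
Zfp36: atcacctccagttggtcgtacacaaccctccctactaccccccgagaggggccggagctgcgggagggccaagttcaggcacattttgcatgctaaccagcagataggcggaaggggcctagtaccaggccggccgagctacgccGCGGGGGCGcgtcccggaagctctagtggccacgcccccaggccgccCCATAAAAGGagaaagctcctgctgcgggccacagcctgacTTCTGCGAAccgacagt
Egr2: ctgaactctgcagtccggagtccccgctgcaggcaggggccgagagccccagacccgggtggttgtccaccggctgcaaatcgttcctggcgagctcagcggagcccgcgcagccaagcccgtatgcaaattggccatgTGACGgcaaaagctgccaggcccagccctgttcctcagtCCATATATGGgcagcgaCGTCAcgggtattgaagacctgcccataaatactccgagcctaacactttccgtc
Jun: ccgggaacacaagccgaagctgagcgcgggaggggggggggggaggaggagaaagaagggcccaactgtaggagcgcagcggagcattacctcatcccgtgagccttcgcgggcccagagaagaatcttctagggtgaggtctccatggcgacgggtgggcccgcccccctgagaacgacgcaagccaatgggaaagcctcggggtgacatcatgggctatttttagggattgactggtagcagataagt
Fos: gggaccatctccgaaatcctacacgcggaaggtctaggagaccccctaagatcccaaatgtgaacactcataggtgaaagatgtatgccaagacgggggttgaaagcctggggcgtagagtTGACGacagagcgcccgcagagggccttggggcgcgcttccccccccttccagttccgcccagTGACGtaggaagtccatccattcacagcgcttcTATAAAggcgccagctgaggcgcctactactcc
Junb: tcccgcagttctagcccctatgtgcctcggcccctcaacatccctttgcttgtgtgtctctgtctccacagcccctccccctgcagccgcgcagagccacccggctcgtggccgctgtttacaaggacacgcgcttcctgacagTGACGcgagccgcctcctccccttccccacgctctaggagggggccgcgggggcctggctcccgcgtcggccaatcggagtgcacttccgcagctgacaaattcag

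Of the 8 members whose promoters were analysed (all but Egr1 and Ier2), 6 held the core TGACG, against 17.8% of the 32851 promoter windows of the same length. Fos held it at 129 and 66 bases before the start and a TATA box at 33 bases, Egr2 at 111 and 55, Junb at 106, and Fosb, Atf3 and Nr4a1 held it as well. Zfp36 was the only one of the 8 with the STAT element, 17 bases before the RefSeq start, and it also held a CArG box at 58 and an EGR element at 105 bases. The STAT element occurred in 7.02% of all windows, the EGR element in 4.70% and the CArG box in 1.47%. Egr2 held the second CArG box, 72 bases before the start that matches the GENCODE principal transcript, which is 1 of its 5 RefSeq starts. The EGR element was also found in Fosb and Nr4a1, and the TATA box, found in Fos alone, occurred in 12.4% of windows. None of the 8 held the full cAMP response element, found in 1.55% of windows, or the AP-1 element, found in 6.75%. Jun held none of the searched motifs. The RefSeq start of Zfp36 lies 1025 bases from the GENCODE principal start, and a match to letters is a description of the sequence only. Sequence outside these windows was not searched, so a motif not found here may lie elsewhere at the gene.

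Libraries of 1 group differed more in the early genes than in most genes. The SD of log2(CPM + 1) around the group mean, pooled over the 6 groups, had a median of 0.442 over the 10 members and of 0.232 over the 14838 genes that averaged 1 CPM or more, and 8 of the 10 lay above that median. Egr2 (pooled SD 1.131) stood at the 97.2 percentile of these genes, Fosb at 88.3, Nr4a1 at 87.1, Fos at 86.4, Egr1 at 82.5, Atf3 at 81.3, Junb at 74.2 and Ier2 at 62.5. Zfp36, at the 49.7 percentile, and Jun, at 44.2, varied about as much as the typical gene. Without WT male 2 and Y665F male 4, the libraries described next, the medians were 0.347 for the members and 0.207 for all genes, and Egr1 moved to the 66.3 percentile.

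In several groups most members were highest or lowest in the same library. Y665F male 4 was the highest of its group for 9 of the 10, all but Atf3, and in it the members had a median of 1.99 times the mean of the other 3 Y665F males, where all genes had a median of 1.06. Fosb stood at 24.9 CPM there against 4.62, 3.57 and 5.86 CPM in Y665F males 1, 2 and 3. Egr1 was at 127.5 CPM against 46.6, 26.2 and 35.1 CPM, and Nr4a1, an orphan nuclear receptor, at 47.4 CPM against 16.0, 13.9 and 14.7 CPM. The 8 mural cell markers (smooth muscle and pericytes), all present in every group, summed to 6482 CPM in this library against 993 to 1440 CPM in the other 3 Y665F males; its 15 skeletal muscle markers summed to 290 CPM against 40.9 to 102 CPM. The 12 epithelial markers summed to 647 CPM there against 66.1 to 140 CPM and the adipocyte markers to 17490 against 24340 to 31630 CPM, and their part in the result was not tested. The opposite pattern, lowest of the group for most members, was seen in WT female 3, for 9 members, and in Y665H male 1, for 8. Y665H female 2 was the highest of its group for 9 members. How many of all genes were lowest or highest in WT female 3, Y665H male 1 and Y665H female 2 was not counted. In WT males, by contrast, no library led for more than 4 members, and WT male 2 was the highest for Junb, Egr2, Ier2 and Nr4a1 and the lowest for Fos, Fosb, Jun, Egr1 and Zfp36.

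Egr2, a zinc finger factor of the EGR family, was at 5.73, 253, 34.4 and 11.1 CPM in WT males 1 to 4. The epididymal markers summed to 1.18, 13790, 3984 and 1446 CPM in the same 4 libraries, the same order from lowest to highest, and the 12 adipocyte markers were lowest in WT male 2, at 11100 CPM against 25850 to 28970 CPM in the other 3. In Y665F males Egr2 was at 11.7, 7.01, 7.72 and 20.9 CPM with epididymal sums of 428, 0.0251, 0.477 and 1085 CPM, and in Y665H males at 4.29, 4.86, 6.74 and 6.12 CPM with sums of 13.0, 1.77, 1784 and 188 CPM. Egr2 was highest in the WT male and the Y665F male with the most epididymal RNA, and also in Y665H male 3, with the largest sum of its group, where it was at only 6.74 CPM. Nr4a1 was also highest in WT male 2, at 41.8 CPM against 13.0, 15.1 and 16.8 CPM. The part of epididymal RNA in these values was not tested. Females, with no more than 0.721 CPM of these markers, had Egr2 at 2.18 to 18.1 CPM.

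**Figure D2:**
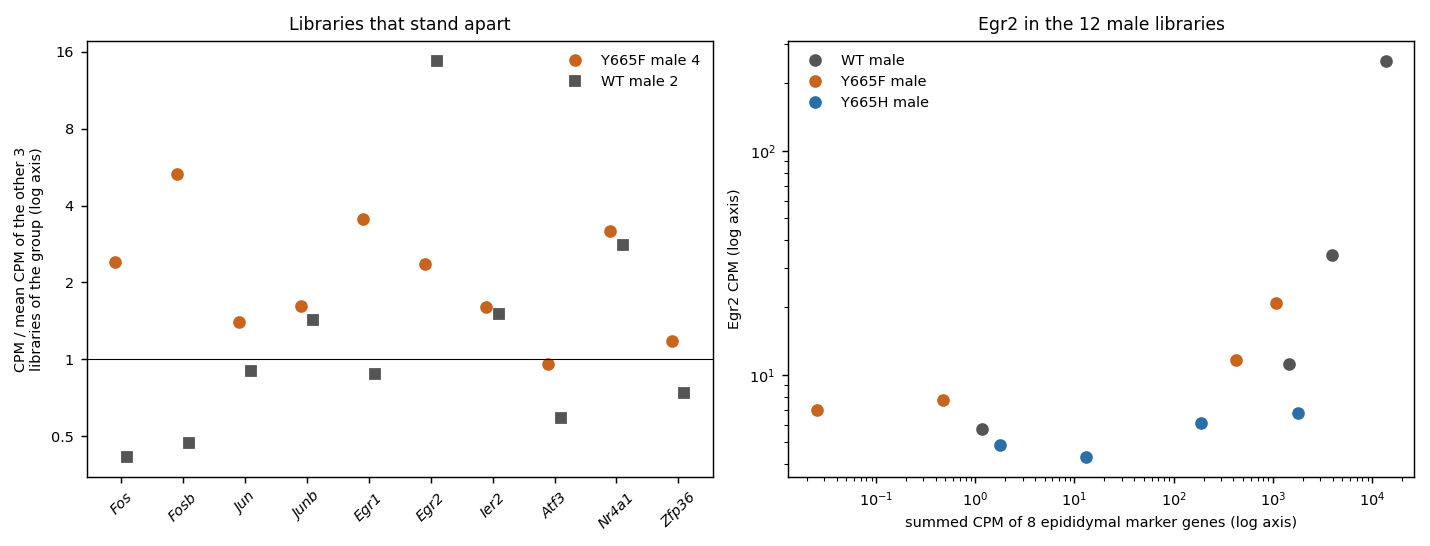
Left: CPM of each member in Y665F male 4 and in WT male 2 divided by the mean of the other 3 libraries of the group (log axis); right: Egr2 CPM against the summed CPM of 8 epididymal markers in the 12 male libraries (both axes log). Y665F male 4 lies above 1 for 9 of 10 genes, and WT male 2 reaches a ratio of 14.8 for Egr2.

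In males, the first question was whether either STAT5B change altered the early genes relative to WT. By edgeR's quasi-likelihood F test with Benjamini-Hochberg adjustment over all genes, no member passed an adjusted p of 0.05 in Y665F males, where 0% of the 16240 genes tested passed. At an unadjusted p under 0.05 there were 5 members (Fos, Fosb, Jun, Egr2 and Zfp36) and 17.1% of all genes. DESeq2 called 0 members and 1129 genes in all. Of the 10 fold changes 9 lay above 0, with a median log2 value of 0.45 against -0.04 over all genes tested.

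Fos and Fosb are subunits of the AP-1 dimer. Fos was at 12.7, 4.60, 7.68 and 13.2 CPM in WT males, against 15.7, 10.5, 19.5 and 36.7 CPM in Y665F males, groups that overlapped in 1 Y665F library. Its log2 fold change of 1.13 (edgeR, SE 0.45, adjusted p = 0.267) became 0.54 (adjusted p = 0.405) without WT male 2 and Y665F male 4. Fosb was at 4.98, 1.63, 2.24 and 3.15 CPM in WT males, and its log2 fold change of 1.68 (edgeR, SE 0.67, adjusted p = 0.269) became 0.51 without the same 2 libraries. Jun, their partner, was at 94.7, 73.0, 75.1 and 74.3 CPM in WT males, against 92.4, 103.8, 97.4 and 137 CPM in Y665F males. Only WT male 1 reached into the Y665F range for Jun, and the log2 fold change of 0.48 (edgeR, SE 0.15, adjusted p = 0.236) was 0.35 without the 2 libraries. Zfp36 was at 60.9, 42.3, 59.3 and 52.4 CPM in WT males, against 59.98, 67.1, 72.8 and 78.7 CPM in Y665F males, a log2 fold change of 0.42 (edgeR, SE 0.15, adjusted p = 0.253). Egr2 pointed the other way, with a log2 fold change of -2.63 (edgeR, SE 1.14, adjusted p = 0.291) that was -0.86 without the 2 libraries. The fit over all 24 libraries together called 3 of these, Egr2, Fosb and Jun, with adjusted p of 0.0424, 0.0359 and 0.0469. That fit called 2261 genes in all.

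In Y665H males no member passed in edgeR, where 0% of the 16406 genes tested passed. An unadjusted p under 0.05 was held by 1 member and 11.4% of all genes. DESeq2 called 1 member, beside 119 genes in all, and in both cases the member was Egr2. Its log2 fold change of -3.75 (edgeR, SE 1.15, adjusted p = 0.402) was -1.61 without WT male 2. All 4 Y665H males lay between 4.29 and 6.74 CPM and WT male 1 was at 5.73 CPM. Fos was at 9.33, 11.2, 13.6 and 10.6 CPM in Y665H males, inside the WT range of 4.60 to 13.2 CPM but for 1 library. Atf3, a stress-induced partner of AP-1 proteins, was at 6.66, 9.18, 8.56 and 9.48 CPM, and WT males spanned 4.81 to 17.1 CPM around it. In the 10 genes together the median log2 value was -0.03, against -0.05 over all genes.

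In females, Zfp36 came closest to a difference from WT. It was at 64.3, 54.6, 47.3 and 69.5 CPM in WT females, at 53.2, 42.4, 42.9 and 51.7 CPM in Y665F females, against 35.7, 39.0, 37.0 and 23.2 CPM in Y665H females. Every Y665H library lay below every WT and every Y665F library. Against WT the log2 fold change in Y665H females was -0.79 (SE 0.18, 1.72-fold lower), with an unadjusted p of 0.00168 and an edgeR adjusted p of 0.0501, just outside the threshold. DESeq2 (adjusted p = 0.0014), scaling to library totals (0.0447), the fit over all 24 libraries (0.0285) and the fit without WT female 3 (0.0324) called it. The edgeR fits without a filter on low counts (0.0538) and with the replicate number as a block (0.0999) did not. The other 7 fits with 1 library left out gave adjusted p of 0.0564 to 0.159. In Y665F females the log2 fold change was -0.44 (edgeR, SE 0.14, adjusted p = 0.102), and DESeq2 called it with an adjusted p of 0.033.

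No other member neared the threshold in Y665H females. edgeR called 0 of the 10, where 3.34% of the 15469 genes passed. Zfp36 alone had an unadjusted p under 0.05, where 23.8% of all genes did. It was the 1 member called by DESeq2, which called 1751 genes in all. It was also the only member whose groups did not overlap, with the Y665H libraries lower, which held for 6.81% of all genes. Jun was at 94.3, 78.0, 70.2 and 87.7 CPM in WT females, against 58.3, 85.9, 66.8 and 61.1 CPM in Y665H females, so that 3 of the 4 Y665H libraries lay below the WT range. Egr2 was at 12.4, 18.1, 2.18 and 3.55 CPM in Y665H females, with libraries 1 and 2 above and 3 below the WT range of 2.93 to 6.62 CPM.

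In Y665F females edgeR also called 0 of the 10, where 3.33% of the 15642 genes passed. An unadjusted p under 0.05 was held by 2 members, Junb and Zfp36, and by 26.3% of all genes. DESeq2 called 1 member, Zfp36, and 2047 genes in all. Junb and Ier2 were higher in every Y665F than in every WT female, a pattern held by 19.9% of all genes. Junb, an AP-1 subunit, was at 18.5, 19.2, 14.3 and 15.4 CPM in WT females, against 21.7, 23.9, 49.9 and 21.6 CPM in Y665F females, a log2 fold change of 0.65 (edgeR, SE 0.26, adjusted p = 0.165). Ier2, a nuclear regulator induced by growth factors, was at 14.1, 14.4, 14.0 and 15.2 CPM in WT females, against 19.3, 15.6, 26.7 and 16.4 CPM in Y665F females, a log2 fold change of 0.30 (edgeR, SE 0.15, adjusted p = 0.247). Without Y665F female 3, the highest library for both, the log2 values were 0.30 and 0.13. In that library the mural cell markers summed to 13650 CPM against 1208 to 3059 CPM in the other 3 Y665F females, the epithelial markers to 1512 against 102 to 291 CPM and the adipocyte markers to 17460 against 25750 to 29370 CPM, and the part of those cells was not tested.

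**Figure D3:**
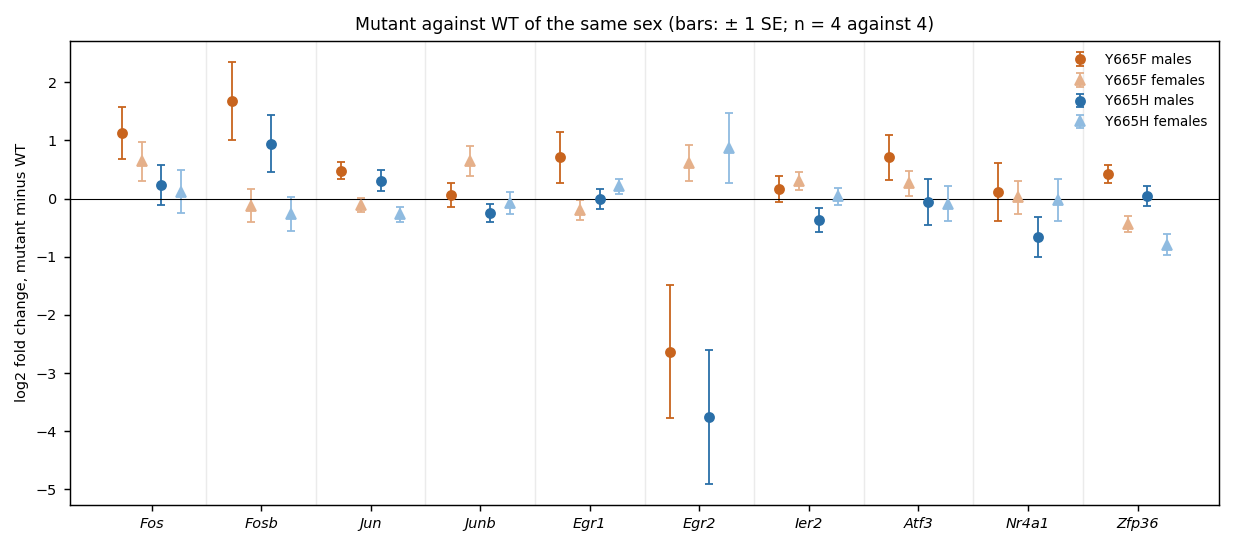
log2 fold change of each member in Y665F (orange) and Y665H (blue) mice against WT of the same sex; circles are males, triangles females, bars ± 1 SE from the edgeR fit of 4 against 4 libraries. Zfp36 lies at 0.42 in Y665F males and at -0.79 in Y665H females, and the bars of Egr2 are widest in males, where WT values run from 5.73 to 253 CPM.

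Genes around the early response, from lists drawn up by function, did pass the test in Y665H females, beside 3.34% of all genes tested. Of the 13 MAP kinase phosphatases and Sprouty proteins, which switch the growth factor signal off again, 4 fell and none rose, with a median log2 fold change of -0.32 over the list against 0.00 over all genes tested. Dusp1, a phosphatase of p38 and JNK, was at 84.2, 83.4, 63.8 and 123.7 CPM in WT females, against 45.3, 43.6, 38.2 and 38.2 CPM in Y665H females, groups that did not overlap (edgeR log2 fold change -1.08, SE 0.19, adjusted p = 0.0248). Dusp8, a JNK phosphatase, fell by 1.15 on the log2 scale (SE 0.18), Spry4 by 0.82 (SE 0.11) and Spry1 by 0.56 (SE 0.12), with adjusted p of 0.019, 0.0141 and 0.0413. Of the NF-kB targets 1 of 11 fell, Tnfaip3, the A20 protein that ends NF-kB signalling, from 17.9 ± 2.12 to 9.34 ± 1.16 CPM (SD, n = 4; edgeR adjusted p = 0.0141). Of the upstream regulators 1 of 25 fell, Srf, serum response factor itself, from 70.5 ± 3.83 to 49.3 ± 4.73 CPM (SD, n = 4; edgeR adjusted p = 0.019).

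Other early response genes included 2 of 41 that fell, Errfi1, a feedback inhibitor of the EGF receptor (from 88.5 to 44.1 CPM on average), and Rhob, a small GTPase (-0.82, SE 0.16), and 1 that rose, Klf10 (0.49, SE 0.10). Their edgeR adjusted p-values were 0.0284, 0.0367 and 0.0381. The counts of these lists too stand beside the 3.34% of all genes called. Of the 15 heat shock genes 1 fell, Hspa1a (-0.73, adjusted p = 0.0476), and of the 13 ATF4 and unfolded protein response genes Asns rose (0.57, adjusted p = 0.0396) and Herpud1 fell (-0.34, adjusted p = 0.045). Among 15 inhibitors and partners of the members Batf3, an AP-1 family factor, fell (-0.93, adjusted p = 0.0486). Tnfaip3 was called in all 8 fits that left out 1 library and Spry4 in all but those without WT female 1 or WT female 4. Each other call named here was lost in 4 to 7 of the 8, with adjusted p up to 0.16, and over all genes the count of calls was 516 with all libraries, 20 or 22 when WT female 1 or 4 was left out and 1269 when WT female 3 was. In the fit over all 24 libraries 1 of the 4 phosphatase and Sprouty calls remained, Dusp8 (edgeR adjusted p = 0.0288), and Tnfaip3 and Rhob were also kept (0.0152 and 0.0368), while the other 10 genes were lost, with adjusted p of 0.0502 to 0.434. The 12 macrophage markers summed to 838 to 1164 CPM in Y665H females and 1078 to 1481 CPM in WT females, the 10 fibroblast and progenitor markers to 6587 to 9929 and 6570 to 12050 CPM, and the mural cell markers to 936 to 3963 and 2032 to 4214 CPM, with no marker of these lists at 0. Fewer cells of a type and less RNA per cell cannot be told apart in bulk tissue, and the part of these cells was not tested.

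**Figure D4:**
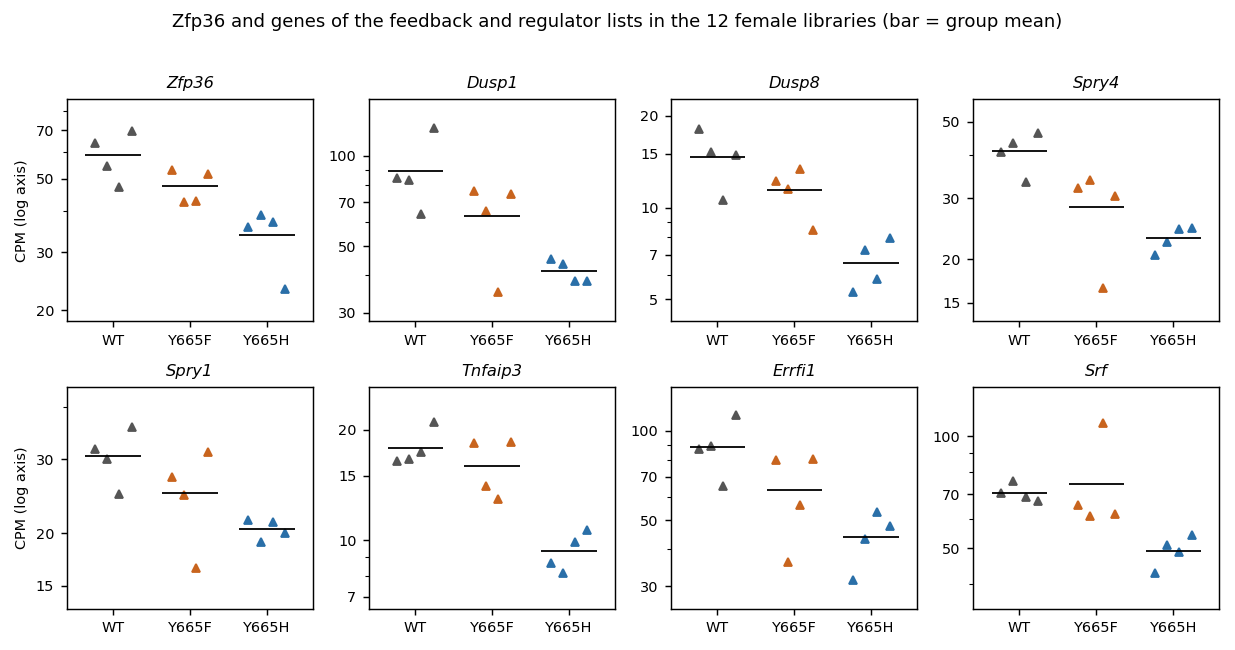
CPM (log axis) of Zfp36 and of 7 genes of the feedback, NF-kB, early response and regulator lists in the 12 female libraries, with the group mean as a bar. The 4 Y665H libraries lie below all 4 WT libraries in each panel, as they do for 6.81% of all genes tested. The 7 list genes were taken from those called lower in Y665H females, so this follows in part from their choice. Dusp1 averages 88.8 CPM in WT and 41.3 CPM in Y665H females.

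Y665F females were set against the same WT libraries, and 3 list genes were called, beside 3.33% of all genes tested. Rhob fell, with levels of 449 ± 85.4 CPM in WT, 254 ± 58.8 CPM in Y665F and 251 ± 29.5 CPM in Y665H females (SD, n = 4). In Y665F females this was a log2 fold change of -0.96 (edgeR, SE 0.20, adjusted p = 0.0435). Rps6ka1, a kinase that phosphorylates CREB and serum response factor, rose by a log2 fold change of 0.58 (SE 0.11, adjusted p = 0.0291), and Nab2, a corepressor that binds EGR proteins, by 0.47 (SE 0.08, adjusted p = 0.027). These were the only calls in their lists, 1 of 41, 1 of 25 and 1 of 15 genes. The NF-kB, phosphatase, heat shock and ATF4 lists, of 11, 13, 15 and 13 genes tested, had 0 calls in edgeR. They held 4, 3, 2 and 5 genes at an unadjusted p under 0.05, beside 26.3% of all genes. DESeq2 called 3, 1, 1 and 4 of them, and 2047 genes in all. Leaving out 1 library ended the call of Rhob and of Rps6ka1 in 6 of 8 fits and of Nab2 in 7 of 8, with adjusted p up to 0.127. The 13 T and NK cell markers, of which 10 rose, stood higher in every Y665F female, where they summed to 37.3 to 56.5 CPM, than in WT females, at 12.0 to 16.8 CPM, and the 10 B cell markers (4 rose) and 12 macrophage markers (none called) did so too, at 27.1 to 38.5 against 9.85 to 15.9 CPM and at 1517 to 2374 against 1078 to 1481 CPM. The part of these cells in the calls was not tested.

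The edgeR fits called no list gene in either male comparison with WT. The other early, NF-kB, phosphatase, upstream, heat shock, ATF4 and partner lists had 41, 13, 13, 25, 15, 13 and 15 genes tested. In Y665F males they held 9, 5, 2, 5, 3, 2 and 3 genes at an unadjusted p under 0.05, beside 17.1% of all genes. DESeq2 called 6, 2, 2, 3, 1, 1 and 1 of them, and 1129 genes in all. In Y665H males the same lists held 2, 0, 1, 2, 3, 0 and 0 such genes, beside 11.4% of all genes. There DESeq2 called 0 in each list and 119 genes in all. In Y665F males the smallest p-values among the lists belonged to Batf3, with a mean of 8.88 CPM against 2.85 CPM in WT males (adjusted p = 0.0873), Btg2, an antiproliferative early gene, at 76.2 against 47.9 CPM, and Gadd45a, a stress gene, at 10.6 against 5.49 CPM (adjusted p = 0.117 for each). Nfkbid, Dusp2, Dusp1 and Rps6ka1 followed within their lists, with adjusted p of 0.137, 0.14, 0.178 and 0.157, and Dusp1 averaged 108 CPM in Y665F males, where WT males averaged 49.4 CPM. In Y665H males the smallest adjusted p of the lists was 0.402.

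Set against Y665F males, Y665H males had fold changes below 0 for all 10 early genes, with a median log2 value of -0.75 against -0.02 over all genes tested. None was called by edgeR, where 1.03% of 15986 genes passed. An unadjusted p under 0.05 was held by 5 members (Fos, Egr2, Ier2, Atf3 and Zfp36) and 18.0% of all genes. DESeq2 called 2 members (Atf3 and Egr2) and 1085 genes in all. Atf3 was at 18.3, 11.8, 12.8 and 13.7 CPM in Y665F males, against 6.66, 9.18, 8.56 and 9.48 CPM in Y665H males, without overlap (edgeR log2 fold change -0.78, SE 0.17, adjusted p = 0.0763). Egr2 did not overlap either (edgeR log2 fold change -1.13, SE 0.32, adjusted p = 0.133), and 6.17% of all genes were lower in every Y665H male. Atf3 was the 1 member for which Y665F male 4 was not the highest of its group. Without Y665F male 4 the log2 fold change of Fos was -0.52, of Egr2 -0.75 and of Ier2 -0.37, that of Atf3 was -0.82, and the mean of Fosb in Y665F males was 4.68 CPM, below the 5.65 CPM of Y665H males. Among the lists Batf3 fell from 8.88 ± 0.765 to 3.13 ± 0.936 CPM (SD, n = 4; log2 fold change -1.54, edgeR adjusted p = 0.03), Btg2 fell by 0.59 on the log2 scale (adjusted p = 0.0314), Mkl1, the serum response factor coactivator, fell by 0.47 and the chaperone gene Dnajb4 rose by 0.54 (adjusted p = 0.0416 for both). Each of these 4 calls was lost in 6 or 7 of the 8 fits with 1 library left out, with adjusted p up to 0.155. The 13 T and NK cell markers, all with a fold change below 0 and 4 of them called, summed to 11.3 to 35.1 CPM in Y665H males against 46.9 to 89.2 CPM in Y665F males, and the 10 B cell markers, none called, to 14.6 to 30.5 against 23.7 to 48.0 CPM. Their part in these calls was not tested.

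In females the same comparison called 0 members in edgeR, where 17.4% of 15493 genes passed. An unadjusted p under 0.05 was held by 1 member (Junb) and 33.4% of all genes. DESeq2 called 0 members and 3958 genes in all. Without Y665F female 2, edgeR called Egr1. Junb, at 15.4, 19.9, 17.8 and 10.5 CPM in Y665H females, and Zfp36 were lower in every Y665H than in every Y665F female, as were 21.5% of all genes. The log2 fold changes were -0.72 (edgeR, SE 0.30, adjusted p = 0.134) for Junb, -0.37 without Y665F female 3, and -0.35 (SE 0.17, adjusted p = 0.201) for Zfp36. Of 11 NF-kB genes 5 fell and none rose, among them Nfkbid (log2 fold change -1.27, SE 0.22, adjusted p = 0.00702), Nfkbiz (-0.50, SE 0.09, adjusted p = 0.00751), Relb (-0.45, SE 0.10, adjusted p = 0.0174) and the adhesion molecule Icam1 (-0.40, SE 0.09, adjusted p = 0.0226). Of 15 inhibitors and partners of the members 5 fell, led by Batf3, from 6.43 ± 1.69 to 1.51 ± 0.288 CPM (SD, n = 4; log2 fold change -1.95, adjusted p = 0.00216), Batf (-1.05, adjusted p = 0.0101), Nab2 (-0.53, adjusted p = 0.0147) and the AP-1 subunit Fosl2 (-0.79, adjusted p = 0.0292).

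Of 40 other early response genes 6 fell and none rose, beside 17.4% of all genes called, with Btg2 (-0.51, edgeR adjusted p = 0.0131), Mafk (-0.42, adjusted p = 0.0255) and Klf6 (-0.57, adjusted p = 0.0291) beside Fosl2. Rps6ka1 (-0.72, adjusted p = 0.0131) and Mkl1 (-0.44, adjusted p = 0.0171) were the 2 of 25 upstream regulators that fell, and Dusp8 (-0.65, adjusted p = 0.033) the 1 of 13 phosphatase and Sprouty genes. The mitochondrial chaperone Hspd1 (0.62) and the endoplasmic reticulum chaperone Hspa5 (0.40) rose among 15 heat shock genes, and the amino acid synthesis genes Asns (0.69) and Psat1 (0.59) among 13 ATF4 genes. Btg2, Nfkbid, Nfkbiz, Rps6ka1, Hspd1, Asns, Batf3, Batf and Nab2 were called in all 8 fits with 1 library left out. Relb and Mkl1 were lost without Y665F female 1 (adjusted p = 0.0516 and 0.0529), and the others in 4 to 7 of the 8, with adjusted p up to 0.0925. The T and NK cell markers summed to 7.68 to 32.6 CPM in Y665H females, the B cell markers to 9.05 to 14.0 CPM and the macrophage markers to 838 to 1164 CPM, all below the Y665F ranges given above, and their part in these calls was not tested.

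The comparisons of males with females were the ones in which members passed the edgeR test. In WT mice, Junb was at 34.6, 45.8, 34.0 and 28.4 CPM in males, against 18.5, 19.2, 14.3 and 15.4 CPM in females, groups far from overlapping, and rose in males by a log2 fold change of 0.94 (edgeR, SE 0.18, adjusted p = 0.0194). Egr1, a zinc finger factor that many growth factors induce, was at 36.6, 32.7, 42.2 and 33.2 CPM in males, against 22.0, 22.8, 25.3 and 20.2 CPM in females (edgeR log2 fold change 0.54, SE 0.13, adjusted p = 0.0367). These 2 of the 10 stand beside 13.1% of the 15865 genes tested, and both held without WT male 2 (adjusted p = 0.0258 and 0.0398). The call of Junb was lost when any 1 WT female was left out, with adjusted p of 0.0542 to 0.0749, and that of Egr1 without any 1 WT female or WT male 3, with adjusted p of 0.0743 to 0.113, and in the fit over all 24 libraries (0.20). Ier2 was the third member without overlap, at 23.9, 33.8, 25.2 and 18.3 CPM in WT males (edgeR log2 fold change 0.67, SE 0.19, adjusted p = 0.0524), a pattern shown by 18.2% of all genes. Egr2 had a log2 fold change of 3.77 (edgeR, SE 1.15, adjusted p = 0.0631) that was 1.62 without WT male 2.

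In Y665H mice Junb was again higher in males, at 26.6, 31.8, 28.8 and 31.9 CPM against 10.5 to 19.9 CPM in females, a log2 fold change of 0.76 (edgeR, SE 0.19, adjusted p = 0.0152) that was called in all 8 fits with 1 library left out. Zfp36 was the other called member, at 48.6, 57.8, 49.4 and 64.2 CPM in males against 23.2 to 39.0 CPM in females (edgeR log2 fold change 0.55, SE 0.18, adjusted p = 0.0427). The call of Zfp36 held in 2 of those 8 fits, without Y665H male 1 and without Y665H female 4, and the other 6 gave adjusted p of 0.0542 to 0.0964. The 2 calls stand beside 28.8% of the 15742 genes tested. Ier2 was the third member with every male above every female, which held for 23.7% of all genes.

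Zfp36 was also the 1 member called in Y665F mice, at 59.98, 67.1, 72.8 and 78.7 CPM in males, against 53.2, 42.4, 42.9 and 51.7 CPM in females (edgeR log2 fold change 0.57, SE 0.11, adjusted p = 0.0167), beside 15.1% of the 15622 genes tested. Of the 8 fits with 1 library left out, 1 lost this call, the fit without Y665F male 3 (adjusted p = 0.053). All 10 fold changes were above 0, and the median log2 value was 0.58 against 0.00 over all genes. An unadjusted p under 0.05 was held by 7 of them and by 34.3% of all genes. Without Y665F male 4 the log2 fold change of Fosb went from 1.60 to 0.61 and that of Nr4a1 from 0.86 to 0.29, while Zfp36 was at 0.54 and still called (edgeR adjusted p = 0.0308). Jun (edgeR log2 fold change 0.37, SE 0.13, adjusted p = 0.0792) and Atf3 (0.58, SE 0.19, adjusted p = 0.0707) did not overlap between the sexes either, as did not 11.3% of all genes in this direction. Egr1 had a larger log2 fold change of 1.43 (edgeR, SE 0.45, adjusted p = 0.0665) and overlapped, with Y665F male 2 at 26.2 CPM and Y665F female 2 at 29.2 CPM, and it was 0.78 without Y665F male 4.

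**Figure D5:**
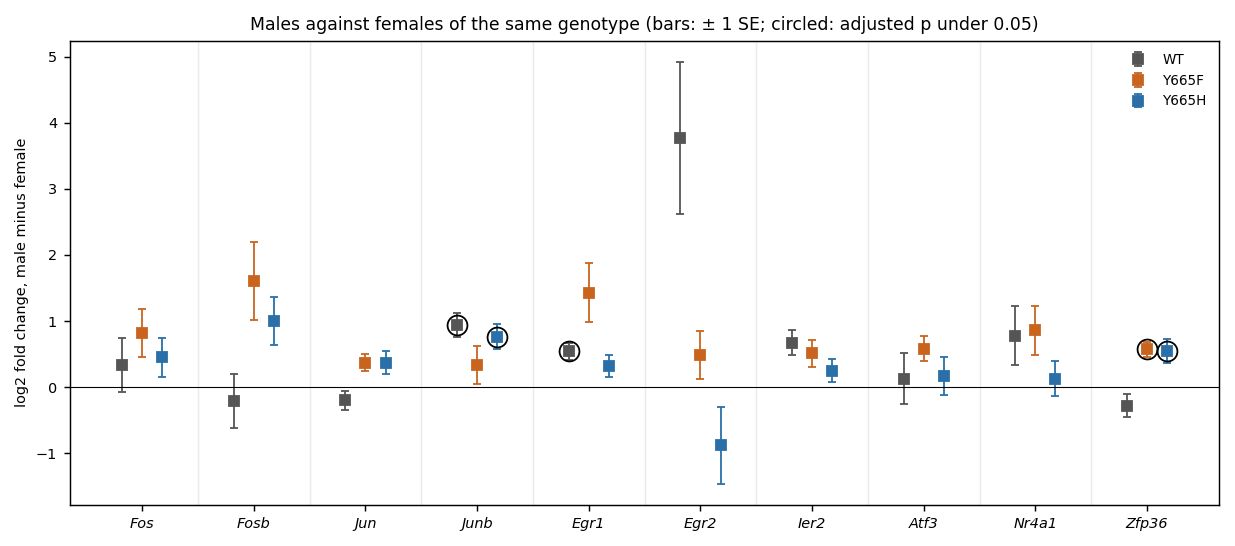
log2 fold change of each member in males against females of WT (grey), Y665F (orange) and Y665H (blue) mice; bars are ± 1 SE from the edgeR fit of 4 against 4 libraries, and circles mark an adjusted p under 0.05. The 5 circled values are Junb in WT (0.94) and Y665H (0.76), Egr1 in WT (0.54) and Zfp36 in Y665F (0.57) and Y665H (0.55).

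The lists around the members were counted in each genotype, with no test of the difference between genotypes, and stand beside the 13.1% (WT), 15.1% (Y665F) and 28.8% (Y665H) of all genes called. Of 12 NF-kB genes 2 rose in males of WT, 5 in Y665F and 8 in Y665H mice, and none fell. The chemokine Ccl2 averaged 6.46 CPM in Y665H males against 0.658 CPM in Y665H females (edgeR log2 fold change 3.13, SE 0.36, adjusted p = 0.000524), and Tnfaip3 of 22.4 and 9.34 CPM (1.11, SE 0.14, adjusted p = 0.00082). In Y665F mice Tnfaip3 rose by 0.73 (SE 0.14, adjusted p = 0.0164) and Ccl2 by 2.06 (SE 0.41, adjusted p = 0.0176), and in WT mice the 2 called genes were Birc3 (0.43, adjusted p = 0.0359) and Il1b (1.62, adjusted p = 0.0487). Of 41 other early response genes 2 rose and 2 fell in WT males, 9 rose and 4 fell in Y665F males, and 11 rose and 2 fell in Y665H males. In Y665H mice Ctgf, a matrix protein induced by serum response factor and YAP, averaged 59.9 CPM in males against 13.3 CPM in females (log2 fold change 2.05, SE 0.31, adjusted p = 0.00178), and Klf6 (0.70) and the stress genes Gadd45b (1.00) and Plk3 (0.66) rose as well. In Y665F mice Bhlhe40 (0.79), Gdf15 (2.49), Plk2 (0.56) and Gadd45b (0.74) led, and in WT mice Rhob (-1.02) and the clock gene Per1 (-0.65) fell in males while Gdf15 (2.69) and Ier5 (0.66) rose.

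Of the 13 phosphatase and Sprouty genes none passed in edgeR between WT males and females, with 1 at an unadjusted p under 0.05 and 1 called by DESeq2. At that unadjusted p stood 33.5% of all genes between the WT sexes, and DESeq2 called 4483 genes in all there. In Y665F mice 3 rose and 2 fell in males, with Dusp10 (0.95) and Dusp2 (1.06) higher and Spred1 (-0.41) and Dusp4 (-0.67) lower. In Y665H mice 6 rose and 1 fell, with Spred2 (0.46), Dusp10 (0.68) and Spry1 (0.68) higher and Dusp4 lower (-1.29, SE 0.16, adjusted p = 0.00073). Of the heat shock genes, 4 of 15 fell and none rose in WT males, 3 fell in Y665F males, and 3 fell and 1 rose in Y665H males. Hspe1, the mitochondrial chaperonin subunit, fell in all 3 genotypes, from 48.5 to 29.5 CPM in WT (edgeR log2 fold change -0.86, SE 0.14, adjusted p = 0.0133), from 61.1 to 33.3 CPM in Y665F (-0.85, SE 0.10, adjusted p = 0.00467) and from 64.2 to 29.9 CPM in Y665H mice (-1.25, SE 0.15, adjusted p = 0.000632). Of 25 upstream regulators 1 rose and 1 fell in WT, 3 and 3 in Y665F, and 4 and 1 in Y665H males, and Crtc2, a CREB coactivator, rose in WT (0.35) and Y665F males (0.41). ATF4 genes gave 0 calls in WT in edgeR, with 3 at an unadjusted p under 0.05 and 2 called by DESeq2, 3 higher and 1 lower in Y665F and 2 of each in Y665H males. The inhibitors and partners gave 1 higher and 1 lower in WT, 2 and 1 in Y665F, and 1 higher in Y665H males, Batf3 (0.92, adjusted p = 0.0296).

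These calls between the sexes differed in how well they stood up to single libraries. In WT mice each call named above was lost in 1 to 7 of the 8 fits with 1 library left out, and the count over all genes ran from 251 without WT female 4 to 5076 without WT male 1, against 2079. In Y665H mice all calls named above but that of Batf3, lost in 4 fits, were kept in all 8, and in Y665F mice Bhlhe40, Gdf15, Plk2, Gadd45b, Tnfaip3, Spred1 and Hspe1 were, while Ccl2, Dusp10, Dusp2, Dusp4 and Crtc2 were lost in 1 to 5. The 10 fibroblast and progenitor markers, all present in every group, summed to 3505 to 6157 CPM in the 12 male and 6570 to 13440 CPM in the 12 female libraries without overlap, and skeletal muscle markers to at most 290 CPM in males and up to 2145 CPM in females. Macrophage markers summed to 1267 to 1787 CPM in Y665H males against 838 to 1164 CPM in Y665H females, without overlap, with 3 of 12 called higher. Of 11 epithelial markers tested, 5 rose in WT males, 2 rose in Y665F males, and 6 rose and 1 fell in Y665H males, with sums of 81.0 to 1696 against 60.1 to 182 CPM in WT and of 126 to 384 against 82.4 to 201 CPM in Y665H mice. Their part in the differences between the sexes was not tested.

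Whether the effect of a mutation differed between the sexes was tested as an interaction over 16 libraries. For Y665F, 0 members passed in edgeR, where 0% of 16732 genes passed. An unadjusted p under 0.05 was held by 4 (Fosb, Jun, Egr2 and Zfp36) and by 21.8% of all genes. DESeq2 called 2 members and 1181 genes in all. The interaction of Zfp36 was 0.86 on the log2 scale, the difference between 0.42 in males and -0.44 in females (edgeR adjusted p = 0.111, DESeq2 adjusted p = 0.00788), and that of Jun was 0.58 (edgeR adjusted p = 0.149). Without WT male 1, edgeR called Zfp36, Egr2 and Jun, with adjusted p of 0.0206, 0.0457 and 0.0287. For Y665H, 0 members passed in edgeR, where 0.0119% of 16827 genes passed. An unadjusted p under 0.05 was held by 3 (Jun, Egr2 and Zfp36) and by 18.3% of all genes. DESeq2 called 1 member and 718 genes in all. The interaction of Zfp36 was 0.83 (edgeR adjusted p = 0.164), and without WT male 1 it was called (adjusted p = 0.0387), as was Egr2 (0.022).

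The genes outside the 10 whose profile was most like theirs were looked up as a description. Each gene was centred on its group means and set against the mean of the 10 members over the 24 libraries, which share depth and library preparation. Prrx2, a homeobox factor, had the highest Pearson r (0.879), followed by Mn1 (0.878), the prostaglandin transporter Slco2a1 (0.84), Zfp365 (0.84), Tpbg (0.84), Cyp7b1 (0.808), the anion exchanger Slc4a3 (0.792), Gata2 (0.791), AU021092 (0.785) and the cochaperone Bag3 (0.785). Of these 10, 8 had their highest level in Y665F male 4, where Slco2a1 reached 656 CPM against a median of 44.0 CPM over all libraries and Tpbg 44.3 CPM against 2.94 CPM. Without WT male 2 and Y665F male 4 the r values were 0.588 to 0.818. Among the members themselves, the Pearson r of each with the mean of the other 9 over the 24 libraries ran from 0.70 for Fosb, 0.676 for Fos and 0.672 for Jun down to 0.262 for Egr2 and for Zfp36 and -0.20 for Atf3.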

How the data were processed

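Total RNA of adipose tissue was depleted of ribosomal RNA and sequenced in pairs on a NovaSeq from a stranded kit, per the labels' protocols. Each library has 1 deposited file of unnormalised whole-number counts by gene symbol; FastQC 0.11.9, Trimmomatic 0.36, STAR, SAMtools 1.9, Picard 2.9.2, HTSeq 0.9.1 and the build mm10 are named, without roles, per the submitters' processing notes. The annotation and the strand setting are not given in the sources used here. The 5 entries that name no gene (24.8 to 39.7% of all counts) entered neither library sizes nor tests.

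Libraries were grouped by title. Each comparison used its 8 libraries (16 for an interaction), TMM scaling, filterByExpr and edgeR 4.0.16 in R 4.3.3 with its quasi-likelihood F test, with Benjamini-Hochberg adjustment over all genes tested and a call at an adjusted p under 0.05. The SE is the log2 fold change divided by the square root of F. The procedure was tested on simulated data. Alternatives were DESeq2 1.42.0, library totals, no filter, a fit over all 24 libraries, the replicate number as a block, and leaving out each library. Spread was taken on log2(CPM + 1), with a pseudocount of 0.1 as the alternative. A count of 0 was read as up to 3 counts. The members and gene lists were chosen with earlier results of these data known. The text names all members, and of each list at most 4 called genes per comparison, by smallest p, or up to 2 not called. Leaving out WT male 2 and Y665F male 4 together was chosen after seeing the data. Promoter windows are from RefSeq, GRCm38.p6.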

Additional observations from a re-analysis of the deposited data

Results flagged for a closer look

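Within groups of 4 libraries, a highest or lowest value whose gap to the nearest other exceeded Dixon's critical share of the group's range was flagged. Of 60 such group tests 7 were flagged. The usual rate of about 1 in 20 holds for normally distributed values and independent tests. CPM need not be normal and the members share libraries, so the 7 cannot be set against that rate. Y665F male 4 was flagged for Fosb (24.93 CPM) and for Nr4a1 (47.39 CPM). WT male 2 was flagged for Egr2 (252.7 CPM) and for Nr4a1 (41.75 CPM). Jun in WT male 1 (94.73 CPM), Junb in Y665F female 3 (49.89 CPM) and Egr2 in Y665F female 1 (13.0 CPM) stood above the other 3 libraries of their groups in the same way. All 7 are high values, and no low value was flagged.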

How the results depend on the processing

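The 39 fold changes of members followed here had an edgeR unadjusted p under 0.05 or groups without overlap. None reversed, which fold changes chosen in this way can hardly do. Fosb in Y665H against Y665F males, not among them, changed direction in mean CPM without Y665F male 4 (5.65 against 4.68 CPM). Of 572 alternative fits of the 39, 512 kept the call or its absence, 22 lost a call and 38 gained one. Most of the 39 were not called, and all losses fell on the calls of Junb, Egr1 and Zfp36 between the sexes. Of 8 fits with 1 library left out, the call of Junb was lost in 4 in WT and 0 in Y665H mice. That of Egr1 in WT was lost in 5, and that of Zfp36 in 1 in Y665F and 6 in Y665H mice. Of 1339 such fits of the named list genes, 938 kept the call and 401 lost it. In place of 0 members in edgeR, DESeq2 called 1 in Y665F females, Y665H males and Y665H females against WT, 2 in Y665H against Y665F males, and 2 and 1 in the Y665F and Y665H interactions; between the sexes it called 4 in WT and 5 in Y665F mice in place of 2 and 1. Over all genes DESeq2 called 2047 in Y665F females, 119 in Y665H males and 1751 in Y665H females against WT. It called 1085 in Y665H against Y665F males, and 1181 and 718 in the Y665F and Y665H interactions. Between the sexes it called 4483 in WT and 4258 in Y665F mice. The fit over all 24 libraries called 3 in Y665F males, 1 in Y665H males and 1 in Y665H females against WT, and 3 between the sexes of Y665F. Over all genes that fit called 2261, 203, 250 and 2453 in the same order. Library totals called 1 in Y665H females against WT and 4 between the sexes of Y665H, and no filter called 1 between the sexes of WT and 1 of Y665H. With 1 library left out, counts ran from 0 to 1 in Y665H females against WT and against Y665F females, 0 to 4 between the sexes of WT, 0 to 1 of Y665F and 1 to 3 of Y665H, and 0 to 3 and 0 to 2 in the Y665F and Y665H interactions. The cause of these changes was not tested. Scaling to library totals moved the median log2 fold change of all genes by over 0.1 in some comparisons, from 0.04 to 0.22 between the sexes of WT and from 0.02 to 0.17 between those of Y665H, from 0.02 to 0.15 in Y665F females against WT, from -0.06 to -0.25 in the Y665F interaction, and from -0.03 to -0.18 in Y665H against Y665F females.

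Libraries with the same replicate number did not deviate together throughout. In each of the 9 comparisons at least 1 pair correlated below 0.1, the lowest values running from -0.37 to -0.02. The highest value was 0.72, in Y665H against Y665F males. Between the sexes of WT, 3 males correlated best with the female of their own number, and in the other comparisons 0 to 2 libraries did so. The numbers were therefore not used as pairs, and pairing was not tested further. With the replicate block the count of members called was 1 in Y665F females against WT (Zfp36, adjusted p = 0.0408), 1 between the sexes of WT, 0 of Y665F and 2 of Y665H. The block ended the calls of Egr1 in WT (0.0614) and of Zfp36 in Y665F (0.0582) and Y665H mice (0.0829), and the 2 called in Y665H mice were Junb and Jun. Of the 13 list genes called in Y665H against WT females it kept Tnfaip3 (0.0367), with adjusted p of 0.0597 to 0.0963 for the others. At this depth a count of 0 allows up to 0.143 CPM.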
